A study of Danio rerio with 9 samples.

Results

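The serpin genes of the zebrafish larval liver were examined in poly A RNA sequencing libraries of livers dissected from larvae kept in vehicle, 1 mM metronidazole or 10 mM metronidazole. The members were all rows of the deposited count table whose gene symbol begins with serpin and a clade letter from a to i, which gave 21 of 32520 genes, and 20 of these are described here. Of the 20, 18 passed the filter on low counts and were tested, while serpinb1l2 and serpini1 did not pass. The genotype label of every library is wild-type, each treatment lasted 24 h and each group had 3 libraries. Metronidazole is the nitroimidazole prodrug given to larvae that express bacterial nitroreductase in order to ablate cells, and the comparisons here measure the drug and its dose without that enzyme. The labels do not give the age of the larvae, nor whether a library came from 1 animal or from a pool, so the p-values cover only how far libraries of a group lie apart, which may be technical in part.

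Serpins are a superfamily of proteins that share 1 fold, and most of them inhibit serine proteases by offering an exposed loop as bait and trapping the protease after it cuts. In vertebrates the liver secretes many of them into the blood, where they restrain coagulation, fibrinolysis, complement and the elastase of neutrophils. Other family members act inside cells or in the matrix, as inhibitors in leukocytes, as a collagen chaperone or as regulators of plasminogen activators, and some, such as the hormone carrier thyroxine-binding globulin, inhibit no protease. Roles named for single genes below are those of the mammalian proteins of the same name.

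Total counts ran from 29993109 to 41300673 per library, and no pair of libraries held identical counts. The 6 hepatocyte markers together stood at 78078 to 123024 CPM (counts scaled to a common library size, with TMM factors) and none of them was called between groups. Exocrine pancreas markers were also present, at 2352 to 7459.8 CPM for 4 matched genes, with ranges that overlapped between all groups. Other lists differed between some groups, given here as vehicle, 1 mM and 10 mM. Macrophage markers stood at 32.5 to 38.8, 31.5 to 40.6 and 44.3 to 51.7 CPM (1 of 5 rose at 10 mM against vehicle). Biliary markers stood at 1352 to 1413, 1298 to 2204 and 1648 to 1741 CPM (0 of 4 called against vehicle). Endothelial markers stood at 147 to 154, 114 to 164 and 157 to 165 CPM (0 of 3 called). Erythroid markers stood at 141 to 175, 180.1 to 307 and 158 to 174 CPM (1 of 3 rose at 1 mM against vehicle). At 10 mM against 1 mM, 1 of 4 biliary, 1 of 5 macrophage and 1 of 3 islet markers rose. Of the epidermis markers 1 of 4 fell at 10 mM against vehicle. The part of these cell types in the results was not tested. The library 1 mM replicate 3 stood apart on the second principal component (-46.9, against -2.14 to 12.7 for the others). The headers of the table name lane 8 for 10 mM replicate 3 and lane 7 for every other library. Lane and dose cannot be told apart in 10 mM replicate 3, while the other 10 mM libraries share lane 7 with vehicle and 1 mM. In bulk samples, fewer cells of a type and less RNA per cell cannot be told apart.

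At 10 mM against vehicle, 0 of the 18 tested serpin genes described here rose or fell by the edgeR quasi-likelihood test at an adjusted p under 0.05, and 2 of them had an unadjusted p under 0.05. Among all 16766 tested genes 17.2% were called in this comparison, 9.74% rising and 7.43% falling. The count of serpins was 1, serpine3, with the DESeq2 test (21% of all genes) or without 10 mM replicate 2 (14.5%). It was also 1, serpinh1a, without 1 mM replicate 3 (23.4%). At 1 mM against vehicle 0 of the 18 were called by edgeR, against 0.984% of all genes (0.889% rising and 0.0954% falling). DESeq2 also called 0, against 3.02% of all genes. By edgeR 1 serpin gene, serpina10a, had an unadjusted p under 0.05. At 10 mM against 1 mM, 0 rose and 3 fell (serpina10a, serpinb1l4 and serpinh1a), so that 16.7% of these serpins were called against 18.8% of all genes (9.39% rising and 9.41% falling), a share near the background. That count was 1 without any single vehicle library (15.3 to 16% of all genes) or 1 mM replicate 2 (13.4%). Without 10 mM replicate 3 it was 2 (12.3%). It fell to 0 when 1 mM replicate 1 (15%) or 10 mM replicate 1 (11.4%) or 2 (14.9%) was left out. Without 1 mM replicate 3 it was again 3 (22.4%), with serpinh1b in place of serpinb1l4. The test over the 3 groups called serpinh1a, 1 of 18, against 19.6% of all genes. It called 0 without any 1 library other than 1 mM replicate 3 (12.1 to 19.8% of all genes). Without that library it called 2 (25.8%). Libraries of 2 groups did not overlap, in either direction, for 40.6% of all tested genes at 10 mM against vehicle. The share was 17.7% at 1 mM against vehicle and 33.7% at 10 mM against 1 mM. These shares stand beside each statement below that groups lay apart.

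The abundant secreted serpins were set as the members of clades A, C, D, F and G with a mean of at least 100 CPM over the 9 libraries, a threshold on counts and not on counts per length. These were 7 genes, serpina1, serpina1l, serpina7, serpinc1, serpind1, serpinf2b and serping1, and the other 13 members described formed the comparison set. The lowest of the 7 was serpind1 at 369 CPM, and below the threshold stood serpina10a at 34.8 CPM. The 7 abundant genes took 1.67 to 2.04% of all counts in each library and the other 13 together 0.00706 to 0.0103%. The sum of the 7 was 18555 ± 1154 CPM in vehicle, 19371 ± 3481 at 1 mM and 18006 ± 1650 at 10 mM (SD, n = 3 each), and the 3 ranges overlapped. The sum of the other 13 was 82.2 ± 8.17, 97.2 ± 8.42 and 78 ± 4.03 CPM in the same order, where vehicle overlapped both doses and the 10 mM libraries were all below the 1 mM libraries. None of the 7 was called in any comparison or under any of the alternatives listed in the methods that tested it.

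**Figure D1:**
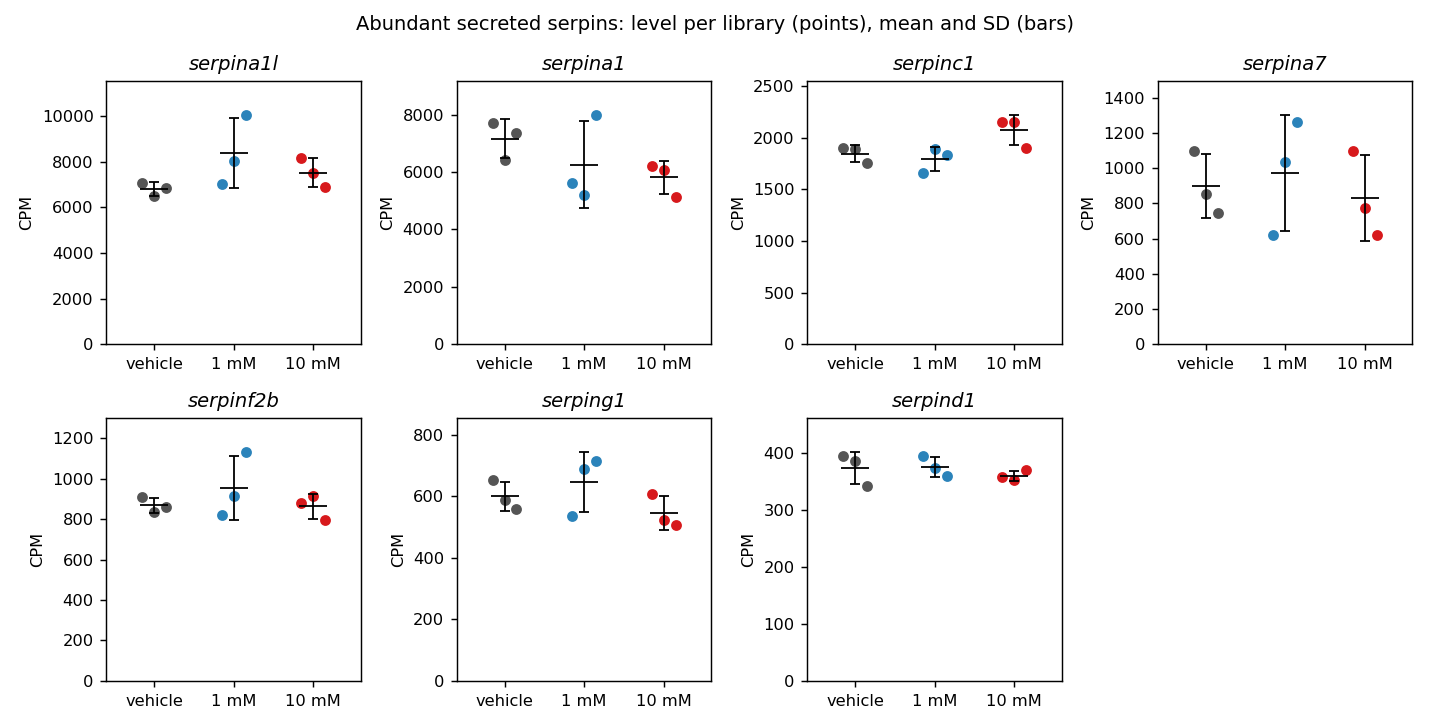
Level of the 7 abundant secreted serpin genes in CPM (vertical axis, from 0) in each library, by group. Points are the 3 libraries of a group, the horizontal bar is their mean and the whiskers their SD. For most genes the groups overlap, and the high point at 1 mM in serpina1l, serpina1, serpina7 and serpinf2b is replicate 3.

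The gene of alpha-1 antitrypsin, the main plasma inhibitor of neutrophil elastase, is present as the neighbouring pair serpina1 (ENSDARG00000090286) and serpina1l (ENSDARG00000090850), which lie next to each other in the RefSeq GRCz12tu gene order. serpina1 stood at 7719.8, 6408 and 7377 CPM in vehicle, 5623, 5191 and 7977 CPM at 1 mM, and 6204, 6088 and 5144 CPM at 10 mM. All 3 libraries at 10 mM lay below all 3 in vehicle, as the groups were apart in one direction or the other for 40.6% of all tested genes, and the 1 mM libraries overlapped both. The fold change at 10 mM was 0.811 (log2 -0.30, SE 0.18, 95% interval of the fold 0.616 to 1.07, adjusted p = 0.296). serpina1l stood at 7079.5, 6489 and 6835 CPM in vehicle, 7028, 8037 and 10028 CPM at 1 mM, and 8169, 7514 and 6878 CPM at 10 mM. In CPM its groups overlapped in each comparison, and its fold change was 1.11 at 10 mM (log2 0.15, SE 0.16, interval 0.866 to 1.41, adjusted p = 0.611) and 1.23 at 1 mM (log2 0.30, SE 0.16, interval 0.963 to 1.57, adjusted p = 0.532). Without TMM scaling, serpina1l took 0.652 to 0.698% of all counts in vehicle, 0.778 to 0.879% at 1 mM and 0.707 to 0.802% at 10 mM. On that scale the treated libraries were all above vehicle, and how many of all genes lie apart there was not computed. Neither gene passed the test.

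Within each library the ratio of serpina1l to serpina1 counts needs no scaling between libraries, and it was computed after the values of both genes were seen. The ratio was 0.917, 1.01 and 0.926 in vehicle, 1.25, 1.55 and 1.26 at 1 mM, and 1.32, 1.23 and 1.34 at 10 mM. Every treated library lay above every vehicle library, while the doses overlapped. The difference in mean log2 ratio was 0.45 for 10 mM against vehicle, a 1.36-fold higher ratio, and 0.50 for 1 mM against vehicle, a 1.41-fold higher ratio. An exact two-sided permutation test over the libraries gave p = 0.1 in both, the smallest that 3 against 3 allows, and p = 0.8 between the doses, where the difference was -0.05. Leaving out any 1 library gave 0.42 to 0.49 at 10 mM and 0.40 to 0.55 at 1 mM. The comparisons share the vehicle libraries. Reads shared by the 2 similar genes could be split between them in the authors' counting, whose treatment of such reads is not given in the sources used here, so the ratio is uncertain. Their sum does not depend on how shared reads are divided, but it would change if those reads were discarded or counted for both genes. The sum was 13969 ± 974 CPM in vehicle, 14628 ± 2939 CPM at 1 mM and 13333 ± 1198 CPM at 10 mM (SD, n = 3 each), with overlapping ranges.

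**Figure D2:**
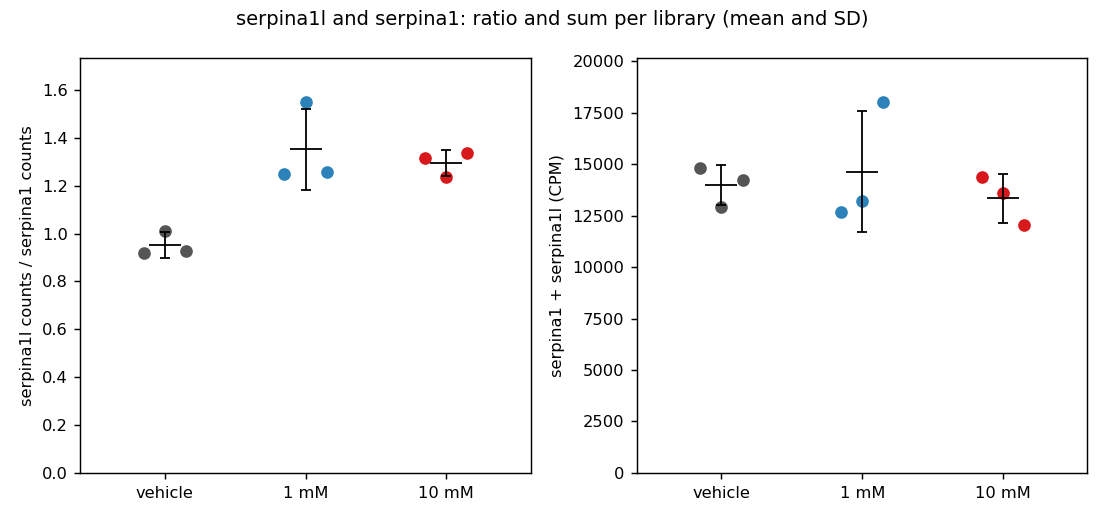
Left, ratio of serpina1l to serpina1 counts within each library. Right, summed level of both genes in CPM. Points are libraries, bars the mean and whiskers the SD of 3. The 6 treated libraries lie between 1.23 and 1.55 on the left, above the vehicle libraries at 0.917 to 1.01, and the groups overlap on the right.

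Of the serpins of coagulation and fibrinolysis, the 3 abundant ones gave no call. Antithrombin, serpinc1 (ENSDARG00000042684), the main inhibitor of thrombin and factor Xa, was at 1898, 1888 and 1752 CPM in vehicle, 1662, 1891 and 1829.7 CPM at 1 mM, and 2156, 2157 and 1906 CPM at 10 mM. The 10 mM libraries were all higher than the others, the nearest by a small margin, and the level was 12.3% above vehicle (log2 0.17, SE 0.13, interval of the fold 0.920 to 1.37, adjusted p = 0.444). Heparin cofactor II, serpind1 (ENSDARG00000021208), a second thrombin inhibitor, was at 394, 385 and 342 CPM in vehicle, 394, 373 and 358 CPM at 1 mM, and 357, 352 and 369.6 CPM at 10 mM. Its groups overlapped in each comparison, and the intervals of its fold change reached from 0.803 to 1.16 at 10 mM and from 0.837 to 1.21 at 1 mM. Alpha-2 antiplasmin, serpinf2b (ENSDARG00000061383), which inhibits plasmin, was at 908, 835 and 860.1 CPM in vehicle, 821, 912 and 1132 CPM at 1 mM, and 881, 914 and 795 CPM at 10 mM. Its fold change was 0.995 at 10 mM (interval 0.798 to 1.24) and its level at 1 mM was 10.1% higher (interval of the fold 0.883 to 1.37), and the groups overlapped.

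Also in this class, serpina10a (ENSDARG00000005924), 1 of the genes of the protein Z-dependent protease inhibitor that acts on factor Xa, showed little spread between replicates. It was at 32, 32.4 and 32.7 CPM in vehicle, 42.2, 39.6 and 38.8 CPM at 1 mM, and 31.7, 32 and 32.2 CPM at 10 mM. The 1 mM libraries were all higher than the other 6, and vehicle and 10 mM overlapped. The fold change was 1.24 at 1 mM against vehicle (log2 0.31, SE 0.10, interval 1.06 to 1.45), which did not pass (adjusted p = 0.225), and the gene fell at 10 mM against 1 mM to 0.795 of its level (log2 -0.33, SE 0.10, adjusted p = 0.0443). That call was lost without any 1 library other than 1 mM replicate 3, with adjusted p from 0.0705 to 0.133, and over 18 alternatives the adjusted p ran from 0.0124 to 0.163.

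Among the remaining abundant serpins, serping1 (ENSDARG00000058053), the C1 inhibitor that restrains complement and contact activation, was at 652, 589 and 559 CPM in vehicle, 535, 691 and 715 CPM at 1 mM, and 608, 524 and 508 CPM at 10 mM. Its groups overlapped, with a fold change of 0.910 at 10 mM against vehicle (interval 0.727 to 1.14, adjusted p = 0.602). serpina7 (ENSDARG00000087143), the carrier thyroxine-binding globulin, was at 1097, 851 and 747 CPM in vehicle, 618, 1034 and 1263 CPM at 1 mM, and 1098, 775 and 619 CPM at 10 mM. It had the widest spread of the 7 between replicates, with an SE of 0.26 on the log2 scale, and the interval of its fold change at 10 mM ran from 0.623 to 1.37. Without 1 of the libraries, or with other settings, its log2 change at 10 mM ranged from -0.37 to 0.07.

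Of the other serpins, clade E holds regulators of plasminogen activation. serpine2 (ENSDARG00000029353), protease nexin-1, an inhibitor of thrombin and plasminogen activators bound to the cell surface, was at 3.72, 3.54 and 3.54 CPM in vehicle, 3.12, 3.03 and 2.73 CPM at 1 mM, and 2.67, 2.05 and 3.38 CPM at 10 mM. All treated libraries were lower than all vehicle libraries, with fold changes of 0.823 at 1 mM (adjusted p = 0.698) and 0.747 at 10 mM (interval 0.536 to 1.04, adjusted p = 0.229), and the test was not passed. Groups lay apart in either direction for 17.7% of all tested genes at 1 mM against vehicle and 40.6% at 10 mM. serpine3 (ENSDARG00000057108) was low, at 17, 28 and 26 counts in vehicle, 39, 31 and 23 counts at 1 mM, and 50, 34 and 60 counts at 10 mM. Scaled to CPM, its 10 mM libraries were all higher than vehicle, by a fold change of 2.21 (log2 1.14, SE 0.40, interval 1.21 to 4.03), which missed the threshold (adjusted p = 0.0707).

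**Figure D3:**
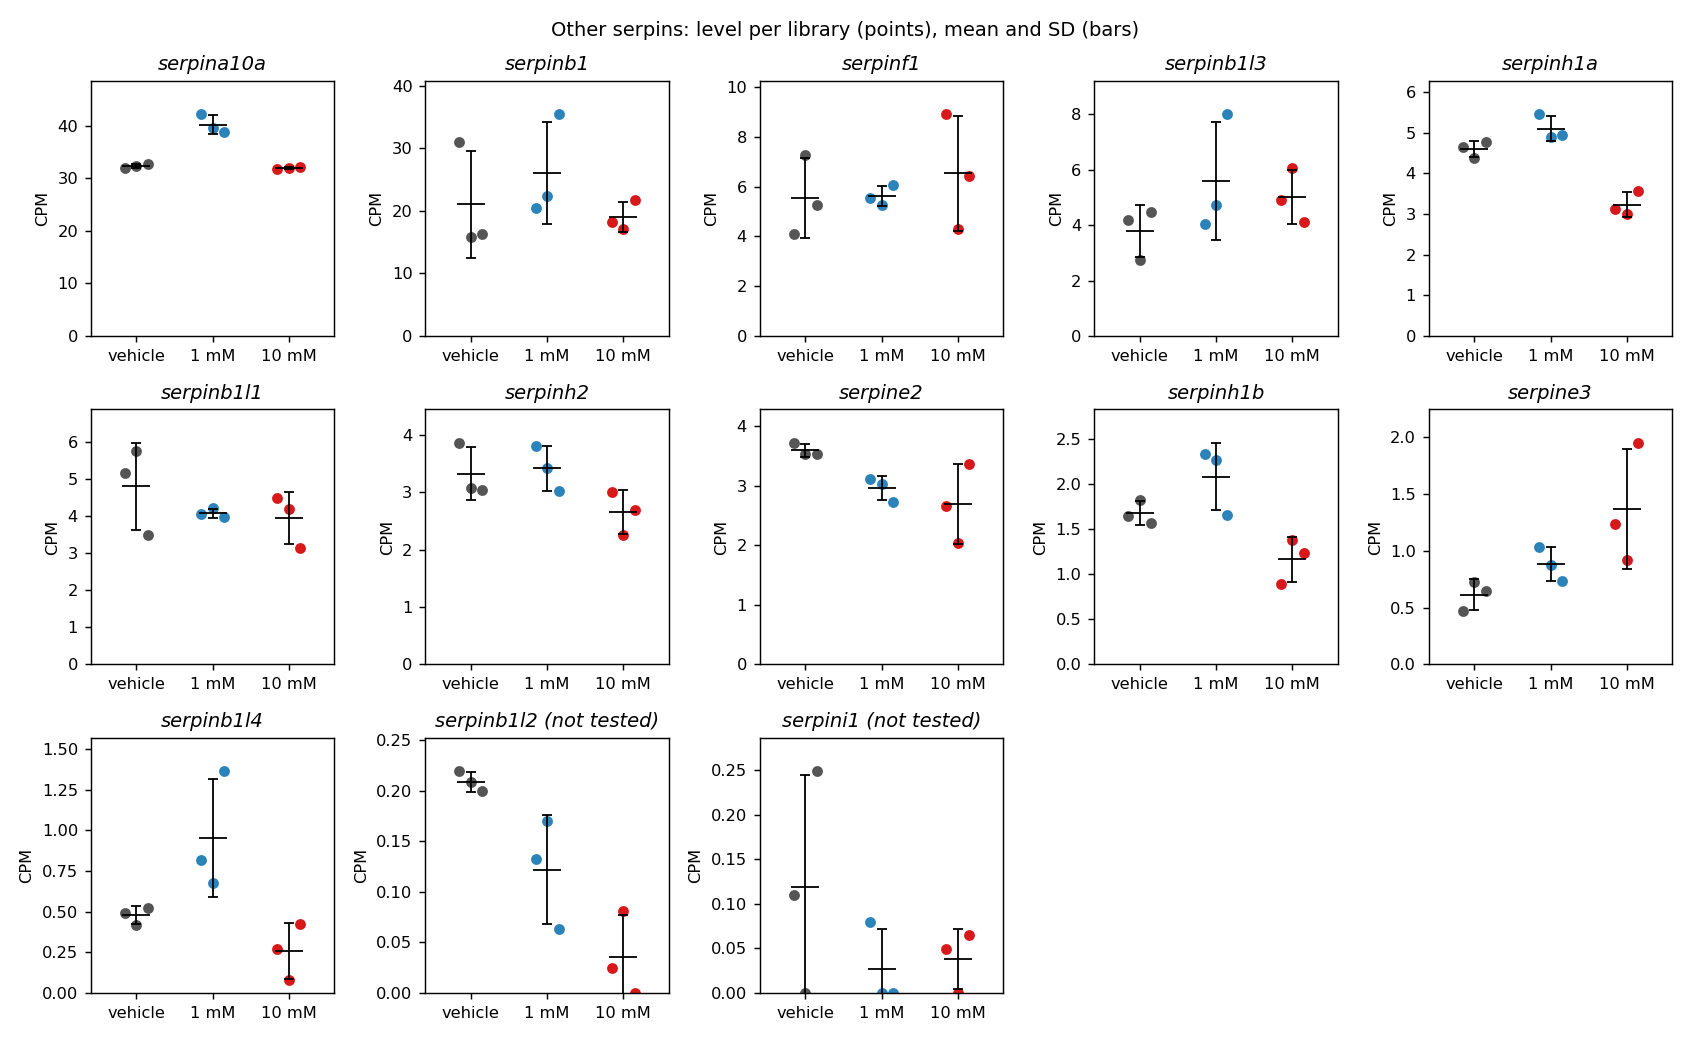
Level of the other 13 serpin genes in CPM (vertical axes, from 0, each on its own scale) in each library. Points are libraries, bars the mean and whiskers the SD of 3. serpina10a stands at 38.8 to 42.2 CPM at 1 mM and at 31.7 to 32.7 CPM in the other 6 libraries, and serpinb1l2 and serpini1 are near the limit of detection.

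Clade H holds the procollagen chaperone of the endoplasmic reticulum, encoded in zebrafish by serpinh1a and serpinh1b, along with serpinh2. serpinh1a (ENSDARG00000075954) was at 4.66, 4.37 and 4.76 CPM in vehicle, 5.45, 4.90 and 4.95 CPM at 1 mM, and 3.11, 2.99 and 3.57 CPM at 10 mM. It fell to 0.631 of its level at 10 mM against 1 mM (log2 -0.66, SE 0.18, interval 0.485 to 0.821, adjusted p = 0.0191), with no overlap. Against vehicle the fold change was 0.701 (log2 -0.51, SE 0.17, interval 0.539 to 0.911), also with no overlap, and missed the threshold (adjusted p = 0.0625, 0.044 without 1 mM replicate 3, and 0.0416 to 0.173 over 17 alternatives). Groups did not overlap, in either direction, for 33.7% of all tested genes against 1 mM and 40.6% against vehicle. The call against 1 mM was lost without 1 mM replicate 1 and without 10 mM replicates 1 and 2 in turn, where the adjusted p was 0.0602 to 0.0721, within 0.00732 to 0.0721 over 17 alternatives.

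serpinh1b (ENSDARG00000019949) was at 1.64, 1.82 and 1.57 CPM in vehicle, 2.33, 2.26 and 1.65 CPM at 1 mM, and 0.888, 1.37 and 1.23 CPM at 10 mM. serpinh2 (ENSDARG00000036445) was at 3.86, 3.07 and 3.04 CPM in vehicle, 3.81, 3.42 and 3.02 CPM at 1 mM, and 3.01, 2.26 and 2.69 CPM at 10 mM. In both genes every 10 mM library lay below every vehicle library, where groups lay apart in either direction for 40.6% of all tested genes. In both every 10 mM library also lay below every 1 mM library, against 33.7% of all tested genes. Neither passed the test, with fold changes against vehicle of 0.693 for serpinh1b (adjusted p = 0.245) and 0.800 for serpinh2 (adjusted p = 0.352), and of 0.558 (adjusted p = 0.0594) and 0.777 (adjusted p = 0.279) against 1 mM. serpinh1b was called against 1 mM without 1 mM replicate 3 and by DESeq2. Of 28 tested genes of a list of procollagens and their processing enzymes, 1 rose and 2 fell at 10 mM against vehicle, where 17.2% of all genes were called, with a median log2 change of 0.06. The 2 that fell were the prolyl hydroxylase gene p3h1 (ENSDARG00000071212, 5.83 ± 0.504 to 2.97 ± 0.449 CPM, adjusted p = 0.00383) and the collagen gene col1a1b (ENSDARG00000035809, 37 ± 3.38 to 24.4 ± 1.68 CPM, adjusted p = 0.00573), and the 1 that rose was sparc (ENSDARG00000019353, 21.2 ± 1.11 to 29.4 ± 1.71 CPM, adjusted p = 0.0308; SD, n = 3 each). The 5 stellate and mesenchymal markers summed to 61.8 to 74.9 CPM in vehicle, 71.3 to 86.1 CPM at 1 mM and 66 to 90.5 CPM at 10 mM, with 1 of 5 higher and 0 lower at 10 mM, and their part in the serpinh1a result was not tested.

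Clade B serpins act inside cells, and serpinb1 is known in mammals as the inhibitor of neutrophil elastase in leukocytes. serpinb1 (ENSDARG00000055416) ranged from 15.8 to 35.5 CPM, and its highest libraries were 1 mM replicate 3 and vehicle replicate 1 (31 CPM), so that all groups overlapped. serpinb1l3 (means of 3.79, 5.59 and 5.03 CPM in vehicle, 1 mM and 10 mM) and serpinb1l1 (3.15 to 5.75 CPM) overlapped between groups as well, and none of the 3 was called. serpinb1l4 (ENSDARG00000096888) had few counts, with 18, 16 and 21 in vehicle, 31, 24 and 43 at 1 mM, and 11, 3 and 13 at 10 mM. In CPM the 1 mM libraries were all higher than vehicle and the 10 mM libraries all lower than 1 mM, while vehicle and 10 mM overlapped. It fell at 10 mM against 1 mM (fold change 0.270, log2 -1.89, SE 0.60, interval 0.110 to 0.660, adjusted p = 0.0431). That call was lost without any 1 library other than 10 mM replicate 3 (adjusted p 0.0583 to 0.128, in a range of 0.00938 to 0.128 over 17 alternatives). The 4 neutrophil markers summed to 27.2 to 32.2 CPM in vehicle, 33.5 to 61.2 CPM at 1 mM and 28.9 to 37.3 CPM at 10 mM, and none of the 4 was called. The 1 mM sums were all above vehicle, though each of the 4 genes taken alone overlapped between these groups. mpx was at 6.69, 33 and 3.14 CPM at 1 mM and 1.78, 4.32 and 1.54 CPM in vehicle. The part of neutrophil and erythroid markers in the serpinb1l4 result was not tested.

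The members that remain were serpinf1 and the 2 genes that did not pass the filter on low counts. serpinf1 (ENSDARG00000069048), pigment epithelium-derived factor, an antiangiogenic protein that inhibits no protease, ranged from 4.11 to 8.91 CPM with overlapping groups (fold change 1.18 at 10 mM, interval 0.790 to 1.75, adjusted p = 0.612). serpinb1l2 had 8, 8 and 8 counts in vehicle, 5, 6 and 2 at 1 mM, and 1, 3 and 0 at 10 mM. Its 3 groups did not overlap in counts between vehicle and either dose, and it was too low to pass the filter. Groups lay apart in CPM for 40.6% of all tested genes at 10 mM against vehicle and 17.7% at 1 mM. With no count filter all 20 members were tested, and 0 were called against vehicle at 10 mM (12.3% of all genes) or 1 mM (1.96%). Neuroserpin, serpini1, which inhibits tissue plasminogen activator in neurons, had 0 counts in 4 libraries and at most 10 in any, and a count of 0 allows up to 3 counts, or 0.0781 to 0.0952 CPM in those 4 libraries. Such limits cover counting error only. They take each count as independent and would be higher if the counts are reads that come in pairs.

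**Figure D4:**
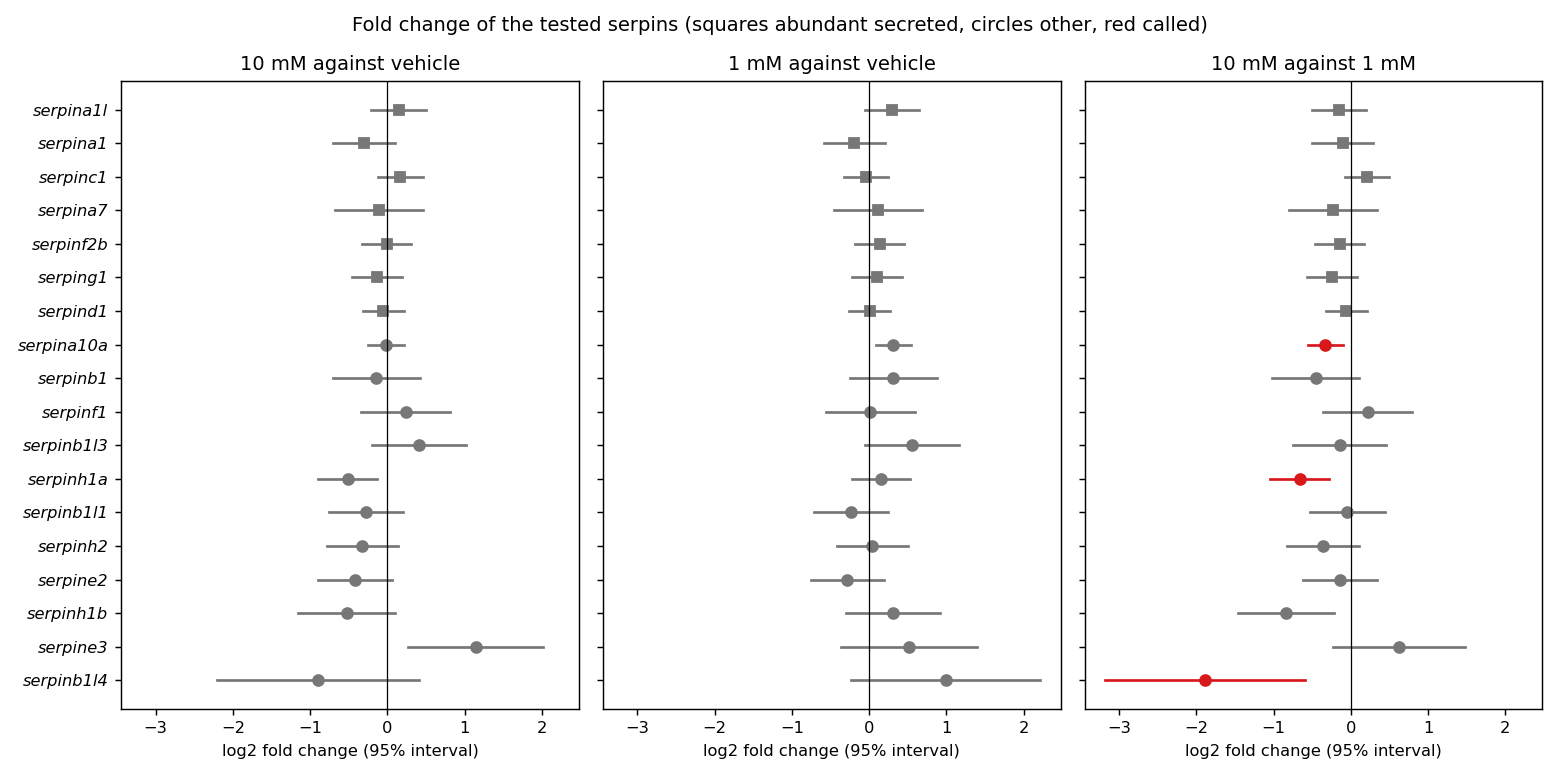
Log2 fold change with its 95% interval for the 18 tested serpin genes in each comparison, ordered by mean CPM from the top. Squares are abundant secreted serpins, circles the others, and red marks an adjusted p under 0.05. No gene is red in the left and middle panels, and red in the right panel are serpina10a, serpinh1a and serpinb1l4, all below 0.

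Set side by side, the 7 abundant secreted serpins had a median size of log2 change of 0.14 at 10 mM against vehicle, with changes from -0.30 to 0.17, 0 of 7 called and 2 of 7 with groups that did not overlap. The 11 other tested serpins had a median size of 0.41, from -0.90 to 1.14, with 0 of 11 called and 5 of 11 without overlap, against 40.6% of all genes, and all tested genes had a median size of 0.36. At 1 mM against vehicle the median sizes were 0.11 for the abundant serpins, 0.31 for the others and 0.22 for all genes, with 0 of 7 and 5 of 11 without overlap, against 17.7% of all genes. For 10 mM against 1 mM they were 0.15, 0.36 and 0.37, with 1 of 7 and 5 of 11 without overlap, against 33.7% of all genes. The abundant genes were also measured more precisely, with a median SE of 0.15 at 10 mM against 0.26 for the other serpins and 0.25 for all genes, so sizes of change and depth move together here, and no test of the difference between the sets was made.

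Rows without a symbol in the deposited table included 3 that the table of Ensembl names calls serpins, and these lie outside the 21. serpinf2a (ENSDARG00000076448), the second antiplasmin gene, which neighbours serpinf1 in the RefSeq gene order, was at 603 ± 20.6 CPM in vehicle, 682 ± 130.1 CPM at 1 mM and 635 ± 53.3 CPM at 10 mM (SD, n = 3 each). serpina10b (ENSDARG00000036968), the second gene of the protein Z-dependent inhibitor, was at 252 ± 17.8, 234 ± 34.9 and 241 ± 23.5 CPM in the same order. Both would have met the threshold for abundant genes, their groups overlapped, and neither was called. serpinb14 (ENSDARG00000091801) was at 18.1, 16 and 17.9 CPM in vehicle, 20.9, 16.6 and 16.9 CPM at 1 mM, and 22, 22.8 and 28.3 CPM at 10 mM. It rose 1.41-fold at 10 mM against vehicle (log2 0.49, SE 0.14, adjusted p = 0.0319), a call lost without any 1 vehicle library or 10 mM replicate 3 (adjusted p 0.0753 to 0.141, in a range of 0.0113 to 0.141 over 18 alternatives). The call was also lost with the replicate number as a block (adjusted p = 0.0507), and in 6 of the 18 alternatives in all.

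Angiotensinogen, agt (ENSDARG00000016412), the precursor of the pressor peptide angiotensin, is a clade A serpin by protein family and does not carry the name. With a mean of 1178 CPM over all libraries, agt would have met the threshold for abundant genes. Only the naming rule keeps it out of the abundant secreted set, so the absence of calls in that set does not extend to agt. It was at 832, 871 and 859 CPM in vehicle, 799, 961 and 1227 CPM at 1 mM, and 1930.1, 1356 and 1765 CPM at 10 mM. The 10 mM libraries were all higher than the other 6, and vehicle and 1 mM overlapped. It rose 1.97-fold against vehicle (log2 0.98, SE 0.18, 95% interval of the log2 change 0.59 to 1.37, adjusted p = 0.00245) and 1.69-fold against 1 mM (log2 0.76, SE 0.18, adjusted p = 0.011). The call against 1 mM was lost without 10 mM replicate 1 (adjusted p = 0.0605, in a range of 0.000352 to 0.0605 over 18 alternatives).

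Genes that work with serpins were read from lists drawn up by function. The lists were chosen with earlier results of these data known, so their counts are not independent of those results. At 1 mM against vehicle 5 of the 6 lists gave 0 calls, where 0.984% of all genes were called. That share leaves few calls to be found in lists of this size. Of 34 tested genes of the target proteases of serpins and of coagulation and fibrinolysis, 2 rose and 1 fell at 10 mM against vehicle, where 17.2% of all genes were called (median log2 change -0.08). These were the factor IX gene f9b (108 ± 4.73 to 177 ± 27.6 CPM, log2 0.71, SE 0.13, adjusted p = 0.0028), factor V, f5 (929 ± 96.9 to 1413 ± 190.1 CPM, log2 0.61, SE 0.15, adjusted p = 0.0152), and a gene of vitronectin, vtna (253 ± 12.5 to 174 ± 21.4 CPM, log2 -0.54, SE 0.13, adjusted p = 0.0113), an adhesive plasma protein. The second genes f9a (log2 -0.10, adjusted p = 0.697) and vtnb (log2 0.04, adjusted p = 0.87) were not called. The count of 3 became 8 without 1 mM replicate 3, where 23.4% of all genes were called. It became 1 without vehicle replicate 3 (10.8% of all genes) or 10 mM replicate 3 (11.5%). At 10 mM against 1 mM 2 of the 34 rose and 5 fell, where 18.8% of all genes were called. Of 23 other secreted protease inhibitors, 2 rose and 0 fell at 10 mM against vehicle (median -0.01), the tissue factor pathway inhibitor genes tfpia (30.8 ± 2.7 to 43.7 ± 4.06 CPM, adjusted p = 0.0149) and tfpi2 (1.9 ± 0.02 to 3.49 ± 1.23 CPM, adjusted p = 0.0413), and the alpha-2-macroglobulin-like gene a2ml stood at 3469 ± 170.2 and 2563 ± 228 CPM without passing (adjusted p = 0.0799; SD, n = 3 each).

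Receptors and partners of serpins gave 3 higher and 1 lower of 14 at 10 mM against vehicle (median 0.16), where 9.74% of all genes rose and 7.43% fell. The LDL receptor gene ldlrb rose from 0.22 ± 0.172 to 2.98 ± 1.06 CPM (adjusted p = 0.0012), the syndecan gene sdc4 from 54.9 ± 4.28 to 80.7 ± 0.861 CPM (adjusted p = 0.00755), and sort1b fell from 7.56 ± 0.511 to 3.07 ± 0.573 CPM (adjusted p = 0.00111). The other gene that rose was pnpla2 (adjusted p = 0.0169), the lipase that serves as a receptor of pigment epithelium-derived factor, named after its values were seen. The second genes ldlra (log2 0.16, adjusted p = 0.518) and sort1a (log2 -0.12, adjusted p = 0.86) were not called. Of 22 transcription factors known to act on liver serpin genes or on the stress responses of the liver, 5 rose and 5 fell (median 0.12), against the same shares over all genes. The CCAAT-binding factor gene cebpb rose from 88.5 ± 10.3 to 214 ± 36.9 CPM (adjusted p = 0.000173), while the bile acid receptor gene nr1h4 fell from 45.8 ± 4.3 to 28 ± 1.86 CPM (adjusted p = 0.00118) and foxa1 from 43.8 ± 6.56 to 23.9 ± 2.87 CPM (adjusted p = 0.00128; SD, n = 3 each). Higher too were cebpa, cebpg, atf4a and xbp1, and lower were foxa2, prox1a and nr3c1, all named after their values were seen.

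Secretory serpins fold in the endoplasmic reticulum, and of 26 tested genes of folding, export and degradation there, 17 rose and 0 fell at 10 mM against vehicle, where 9.74% of all tested genes rose and 7.43% fell (median log2 change 0.58, against -0.03 for all tested genes). The segregase gene vcp, which extracts misfolded proteins, was at 86.6 ± 3.47 CPM in vehicle and 179 ± 10.9 CPM at 10 mM (log2 change 1.05, SE 0.12, adjusted p = 9.63e-05). The disulfide isomerase gene pdia6 rose from 18.9 ± 2.62 to 45.1 ± 7.94 CPM (adjusted p = 0.000179) and the chaperone gene hspa5 from 32.9 ± 6.23 to 125 ± 31.4 CPM (adjusted p = 0.000292; SD, n = 3 each). At 1 mM against vehicle 5 of the 26 rose and 0 fell, where 0.889% of all genes rose and 0.0954% fell. Among the 5 was hspa5 (log2 1.43, SE 0.25, adjusted p = 0.0226). Without vehicle replicate 2 the count at 10 mM against vehicle was 11, where 11% of all genes were called. This list was chosen with earlier results of these data known, so its excess over all genes is not an independent result.

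**Figure D5:**
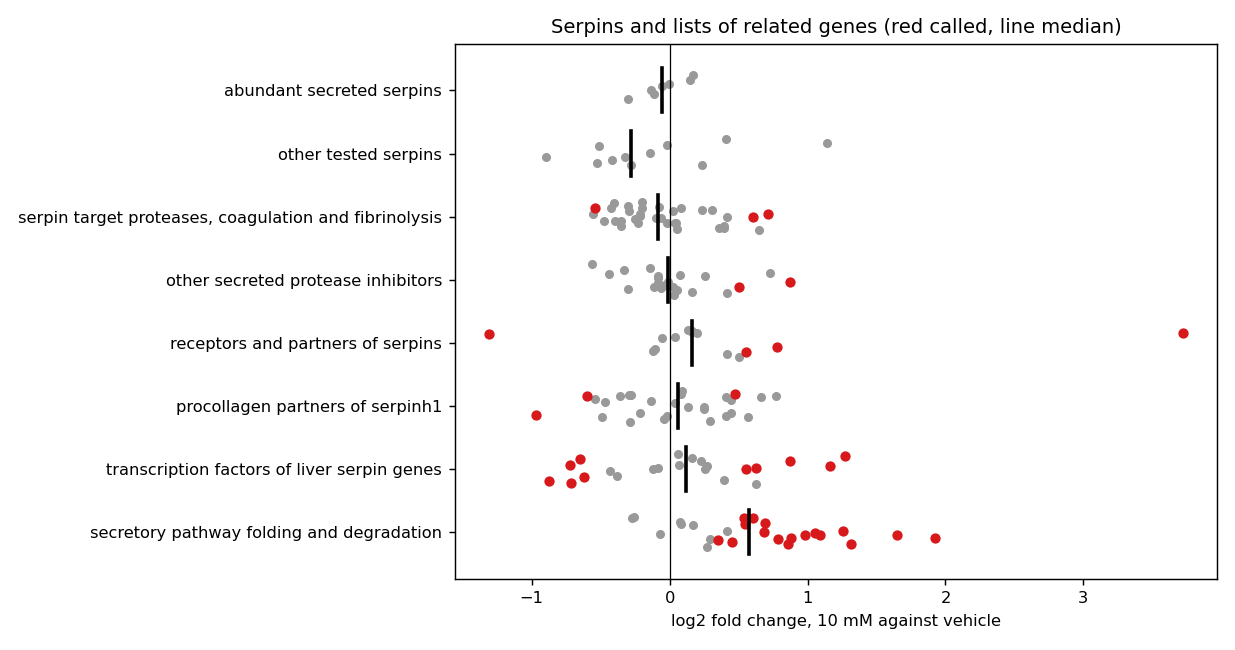
Log2 fold change at 10 mM against vehicle for the tested serpins and for each list of related genes. Each point is a gene, red where the adjusted p was under 0.05, and the black line is the median of the list. The points of the abundant secreted serpins lie between -0.30 and 0.17, and 17 of the 26 genes of secretory folding and degradation are red and above 0.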

How the data were processed

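The authors deposited 1 table of raw counts per gene, not normalised, on genome build GRCz11, with HISAT2 and featureCounts named in the submitters' processing notes. The sources used here give no versions, no annotation release, no strand setting and no rule for multi-mapped reads. Even numbers made up 75.2 to 82.9% of gene counts between 1 and 20, so the unit may be reads, not fragments. Genes passed filterByExpr (minimum count 10, minimum total 15), and 16766 were fitted with a mean per group over all 9 libraries and TMM factors by the edgeR quasi-likelihood test (edgeR 4.0.16, R 4.3.3), two-sided, with Benjamini-Hochberg adjustment over all genes and a threshold of 0.05. SE was the size of the log2 change over the root of F, and intervals are 95% of the t distribution. CPM uses TMM-scaled library sizes. The pipeline was run on simulated data with 200 genes changed by a log2 size of 1 or more. That run does not bear on smaller changes.

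Of the 21 members, 1 is not reported here and is left out of every count of serpins, though not of the fits. The members, lists and alternatives were chosen with earlier results of these data known. Of 175 list entries, 153 matched 1 gene each, and the list of other protease inhibitors (26 of 36) and that of receptors (14 of 18) matched under 80%. Named with values in every library were members called in any comparison or with a mean of at least 100 CPM, and 3 genes per list with the smallest p at 10 mM. The other members are given as the rest of the family, with values per library for those chosen after they were seen, and agt was named by the same rule. Alternatives were DESeq2 size factors, the DESeq2 test (version 1.42.0), no count filter, at least 5 CPM in 3 libraries, leaving out mitochondrial and the 20 most abundant genes (among them serpina1 and serpina1l), only the 6 libraries compared, the replicate number as a block, and leaving out each library; leaving out 1 mM replicate 3 with 10 mM replicate 3 and halving the counts were chosen after the data were seen.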

Additional observations from a re-analysis of the deposited data

How the results depend on the processing

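Of the 18 tested members matched by symbol, 0 were called at 10 mM against vehicle, where 17.2% of all genes were called. The count was 1 with the DESeq2 test (21% of all genes) and 1 without both 1 mM replicate 3 and 10 mM replicate 3 (20.5%). It was 0 to 1 leaving out 1 library (10.8 to 23.4%). At 10 mM against 1 mM (3) it was 4 with the DESeq2 test (22.2% of all genes) and 2 with DESeq2 size factors (18.7%). It was 1 of 20 tested with no count filter, where 13.1% of all genes were called. With at least 5 CPM in 3 libraries it was 1 of 10 tested, where 29.7% of all genes were called. serpinh1a and serpinb1l4 did not pass that filter, and serpina10a stayed called. The count was 0 with only the 6 libraries compared (14% of all genes), and 0 to 3 leaving out 1 library (11.4 to 22.4%). Over the 3 groups (1, where 19.6% of all genes were called) it was 3 with the DESeq2 test (25.6%) and 0 with no count filter (15.3%). It was 2 without both replicates 3 (22.9%), 2 with counts halved (22.7%) and 0 to 2 leaving out 1 library (12.1 to 25.8%). At 1 mM against vehicle it was 0 under every alternative run. With the replicate number as a block the counts were 0, 0 and 2 in the 3 comparisons and 0 over the 3 groups. Of all genes 14.6, 0.65, 15.7 and 16.4% were called in the same order. Numbers were not used as pairs: same-numbered libraries correlated at -0.19 to 0.13 in their deviations from group means, with 2 of 9 pairs above 0.1. Of the 9, 4 matched best with their own number. At 10 mM against vehicle the same-numbered pairs stood at 0.13, 0.05 and 0.12, each the best match of its 10 mM library. Of all genes, 165 were called at 1 mM against vehicle, and 506 with the DESeq2 test, 487 with no count filter, 96 with at least 5 CPM, 109 with the block, 103 with only the 6 libraries, 266 without both replicates 3 and 21 to 202 leaving out 1 library. Leaving out 1 library gave 1854 to 4066 (2878) at 10 mM against vehicle, 1963 to 3902 (3153) against 1 mM and 2093 to 4486 (3286) over the 3 groups. Single fold changes were followed for 10 members, agt and the 3 rows without a symbol: no called one changed sign, and of 633 uncalled ones 32 did. Of 324 counts for the related lists, 258 equalled the reported count or lay within 1.5 times of it. Those 258 include any counts of 0 where the reported count was also 0. Abundant secreted serpins were 7 at thresholds of 50, 100 and 200 CPM. The causes of these shifts were not tested. Genes under about 1 CPM rest on few counts, and the intervals of serpine3 and serpinb1l4 are the widest.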
